A study of Homo sapiens with 6 samples.

Results

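The microRNA machinery was followed in A549 cells after knockdown of CEP20 through 10 genes, AGO1, AGO2, AGO3, AGO4, DICER1, DROSHA, XPO5, TNRC6A, TNRC6B and TNRC6C. These were chosen by name, as factors that a transfected small interfering RNA (siRNA) or a cellular microRNA engages, and all 10 were found among the 60624 genes of the deposited table. DROSHA rose 1.74-fold, the low-level gene TNRC6C rose in a way that depended on the processing, and the other 8 genes did not pass the test with the values as deposited.

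A549 cells, an established line from a human lung adenocarcinoma, are labelled as non-small cell lung cancer. RNA was sequenced from 3 siCEP20 libraries, from cells that received siRNA against CEP20, and from 3 siCTR libraries, from cells that received a control siRNA, with transfection lasting 3 days in each group according to the labels. The labels also list a plasmid transfection for all samples, whereas the methods of the study describe siRNA delivered with a lipid reagent. Every library therefore came from transfected cells, an untransfected culture was not analysed here, and which of the study's siRNAs against CEP20 was sequenced is not given in the sources used here. The statistics section of the study describes its experiments in general as independent repeats, without naming the RNA libraries. The labels do not say whether the libraries of a group came from separate cultures, so p-values measure the spread between these samples, which may be technical.

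In the canonical pathway, the nuclear RNase DROSHA and its RNA-binding partner DGCR8, which together form the Microprocessor, cut a hairpin out of a long primary transcript. XPO5 (exportin-5) carries the hairpin to the cytoplasm, where the RNase DICER1 removes its loop. An Argonaute protein keeps a single strand of the resulting duplex and reads target messages through the seed, the bases that follow the first base of that strand, and TNRC6 (GW182) proteins bind Argonaute and recruit deadenylases. A synthetic siRNA duplex enters at the Argonaute step and needs neither DROSHA nor XPO5. AGO2 is the Argonaute known to slice a fully matched target.

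The values are TPM, in which a gene's abundance is scaled for the length of its transcripts and expressed as a part of the library, so genes can be set beside each other. The read depth of each library is unknown from TPM, and between 14429 and 14600 genes reached 1 TPM in the siCTR libraries against 14851 to 14987 in the siCEP20 libraries. Log2 fold changes compare log2(TPM + 1) in siCEP20 with siCTR by limma over the 14778 genes that averaged 1 TPM or more, with Benjamini-Hochberg adjusted p-values, and this scale understates the change of low genes. Over all tested genes the log2 fold changes had a median of 0.13. Median-of-ratios scaling, which divides each library by its typical ratio to the others, set this median close to 0 and moved single genes down by a similar amount. CEP20 fell from 31.6 ± 3.10 to 16.2 ± 1.01 TPM (SD, n = 3 each), so that 51.4% of its control level was left (log2 fold change -0.92, limma adjusted p = 0.000205). All 5 epithelial markers were expressed and higher in siCEP20 libraries, summing to 3230 to 3300 TPM in siCTR and 4187 to 4368 TPM in siCEP20. None of the 6 alveolar and 4 endothelial markers reached a mean of 1 TPM, and SFTPA1 and SFTPA2 were listed at 0 in every library. The 6 immune markers summed to 24.5 to 34.6 TPM in siCTR and 35.3 to 55.1 TPM in siCEP20, with CD3E listed at 0 in every library. The 5 fibroblast markers summed to 5.37 to 6.02 TPM against 17.5 to 20.03 TPM, with COL1A2 and DCN at 0. In bulk RNA, fewer cells that express a gene and less of its RNA per cell cannot be told apart.

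All 10 machinery genes passed the filter on low TPM. TNRC6C, at 0.897 TPM in siCTR and 1.80 TPM in siCEP20 on average, passed it only through its siCEP20 values. Its call as higher is therefore not independent of the filter. Of the 10 genes, 2 were higher in siCEP20 at an adjusted p under 0.05 (20%), DROSHA and TNRC6C, where 30.2% of all tested genes were higher. None was lower, against 13.2% of all tested genes. With a fold change over 1.5 required as well, 1 gene was called higher, DROSHA, against 11.2% of all tested genes. The siCEP20 and siCTR values did not overlap in the same 2 genes, whereas they did not overlap in 55.4% of all tested genes. The median log2 fold change of the 10 genes was 0.07, which was -0.07 relative to all tested genes. As deposited, 8 of the 10 log2 fold changes were positive and 2 negative, but 3 were positive and 7 negative with median-of-ratios scaling or quantile normalization, and 2 were positive and 8 negative after correcting for length and GC content of the transcripts.

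**Figure D1:**
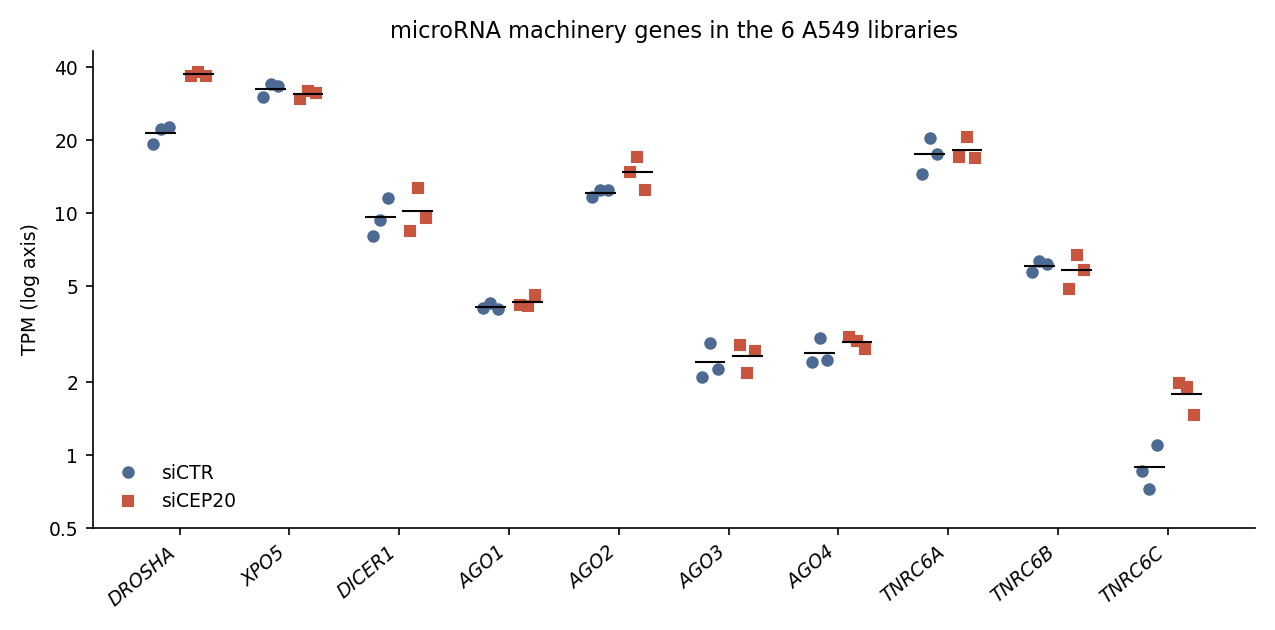
TPM of each of the 10 genes (log axis) in the 3 siCTR libraries (circles) and the 3 siCEP20 libraries (squares), with black lines at the group means. DROSHA moves from 19.3 to 22.7 TPM in siCTR to 36.9 to 38.4 TPM in siCEP20, TNRC6C is the lowest gene and also separates, and the groups of the other 8 genes overlap.

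DROSHA (ENSG00000113360, hg38 chromosome 5 from 31400494 to 31532196, minus strand) starts microRNA maturation in the nucleus. Its TPM was 19.3, 22.3 and 22.7 in siCTR and 36.9, 38.4 and 37.0 in siCEP20. Every siCEP20 value lay well above every siCTR value, and the siCEP20 libraries were close to each other. On average it rose from 21.4 ± 1.85 TPM (SD, n = 3) to 37.4 ± 0.848 TPM (SD, n = 3), with a log2 fold change of 0.78 (SE 0.0803, 95% interval 0.59 to 0.96, limma adjusted p = 0.000237), or 0.65 relative to all tested genes. By exact permutation (two-sided) p was 0.1, which is the smallest p that 3 libraries against 3 can reach. The log2 fold change of DROSHA exceeded that of 94.6% of all tested genes and of 93.7% of genes in the same decile of transcript length. It was past the threshold in all 16 alternative processings, at 0.56 to 0.82. No other expressed gene of the annotation overlaps DROSHA.

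DGCR8, which holds the hairpin for DROSHA, is not among the 10 genes and is described because it is the other component of the Microprocessor, a choice made after its values were seen. Its TPM was 16.0, 14.9 and 15.1 in siCTR and 13.1, 13.7 and 10.1 in siCEP20. All 3 siCEP20 values lay below the siCTR values, opposite in direction to DROSHA. The mean was 15.3 ± 0.600 against 12.3 ± 1.93 TPM (SD, n = 3 each), with a log2 fold change of -0.31 that missed the threshold (95% interval -0.57 to -0.04, limma adjusted p = 0.0654). It was called lower with median-of-ratios scaling (adjusted p = 0.0195 from limma), quantile normalization (0.0174) and the length and GC correction (0.0132). Without siCEP20 replicate 3, the library with the lowest value, the log2 fold change was -0.18 (adjusted p = 0.167). DGCR8 overlaps TRMT2A on the opposite strand, and the sources differ on the library: the methods of the study describe removal of the U-labelled second strand, which keeps strand information, whereas the labels name a kit without mentioning strand. Whether strand was used when TPM were computed is not given in them, so reads of overlapping genes on opposite strands may not have been separated.

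XPO5 (ENSG00000124571, chromosome 6 from 43522334 to 43576038, minus strand) was the most abundant of the 10 in siCTR libraries. Its TPM was 30.3, 34.1 and 33.4 in siCTR and 29.7, 31.8 and 31.3 in siCEP20, and the groups overlapped. The log2 fold change was -0.07 (SE 0.0735, 95% interval -0.24 to 0.10, limma adjusted p = 0.453). Relative to all tested genes it was -0.21, and XPO5 was called lower with median-of-ratios scaling (-0.22, adjusted p = 0.015), quantile normalization (-0.21, adjusted p = 0.0191) and the length and GC correction (-0.29, adjusted p = 0.00387). XPO5 overlaps POLR1C on the opposite strand, at 44.5 TPM in siCTR and 38.8 TPM in siCEP20 on average.

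DICER1 (ENSG00000100697, chromosome 14 from 95086228 to 95158010, minus strand) was at 8.02, 9.40 and 11.5 TPM in siCTR and 8.44, 12.7 and 9.52 TPM in siCEP20. The spread within each group, with SDs of 1.77 and 2.21 TPM, was larger than the difference of the means, 9.65 and 10.2 TPM. The log2 fold change was 0.07 (SE 0.168, limma adjusted p = 0.761), with an interval from -0.32 to 0.45 that leaves room for a change of moderate size in either direction. Its sign was negative with median-of-ratios scaling, quantile normalization and the length and GC correction. DICER1 overlaps the noncoding DICER1-AS1 on the opposite strand, at 1.39 TPM in siCTR and 1.22 TPM in siCEP20 on average (adjusted p = 0.629).

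Because ratios within a library do not depend on the scale between libraries, DROSHA was also set against its pathway neighbours in each library, a comparison added after the data had been seen. DROSHA to XPO5 was 0.638, 0.655 and 0.678 in siCTR and 1.24, 1.21 and 1.18 in siCEP20. DROSHA to DGCR8 was 1.21, 1.499 and 1.51 in siCTR and 2.80, 2.81 and 3.66 in siCEP20. DROSHA to DICER1 was 2.41, 2.37 and 1.97 in siCTR and 4.37, 3.02 and 3.88 in siCEP20. In all 3 ratios the siCEP20 libraries lay above the siCTR libraries, with no overlap. Each gave p = 0.1 in the two-sided exact permutation test, the smallest possible value, and 0.1 after adjustment over the 3 ratios. They share DROSHA, whose own values already separated the groups, so they are not independent of one another or of the change in DROSHA.

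**Figure D2:**
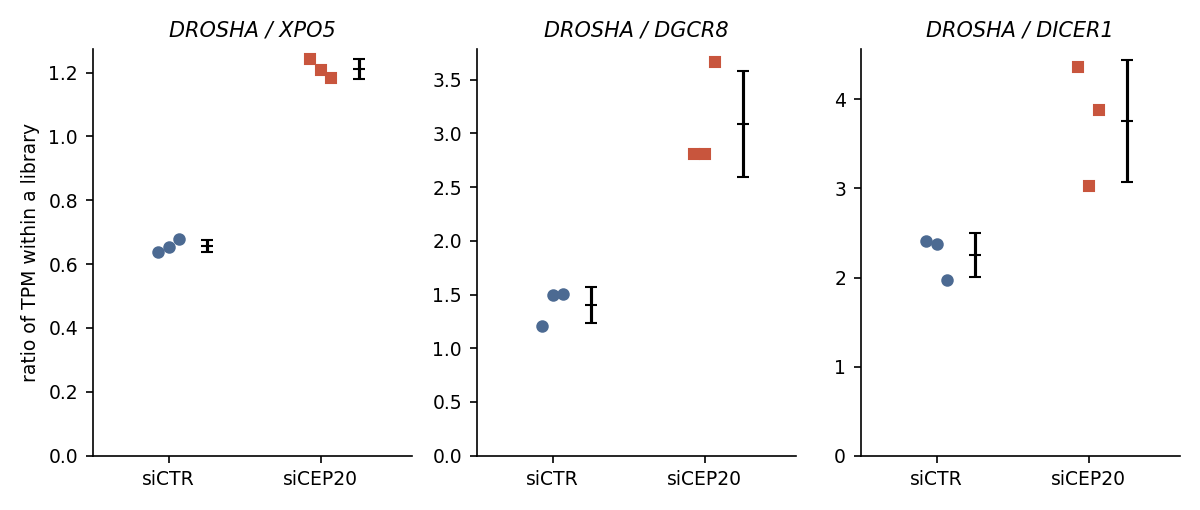
Ratio of DROSHA TPM to that of XPO5, DGCR8 and DICER1 within each library, for 3 siCTR (circles) and 3 siCEP20 libraries (squares), with the mean and SD of each group as black bars beside the points. In siCTR every library holds less DROSHA than XPO5 (ratios 0.638 to 0.678), and in siCEP20 every library holds more (1.18 to 1.24).

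The substrates of DROSHA are primary transcripts, some of which are long noncoding host genes that the annotation names. Of 43 host transcripts listed, 25 were tested, 7 were higher (28%) and 2 lower (8%), against 30.2% and 13.2% of all tested genes, and the median log2 fold change was 0.27. With median-of-ratios scaling 7 were higher and 4 lower. MIR100HG, the host of let-7a-2, miR-100, miR-125b-1 and miR-10526, rose from 5.14, 7.16 and 7.44 TPM in siCTR to 13.2, 17.7 and 14.7 TPM in siCEP20 (log2 fold change 1.10, SE 0.153, limma adjusted p = 0.00089). MIR503HG, the host of miR-503, rose from 8.07, 8.65 and 12.1 TPM to 20.8, 19.3 and 19.6 TPM (log2 fold change 0.99, SE 0.138, adjusted p = 0.000892). In these 2 host genes every siCEP20 value was above every siCTR value. MIR4435-2HG was at 77.9 ± 3.85 TPM in siCTR and 52.5 ± 3.86 TPM in siCEP20 (SD, n = 3 each; log2 fold change -0.56, adjusted p = 0.000668), but it has a near-identical copy, CYTOR, at 104 and 78.7 TPM, so its share of the reads is uncertain. The other host genes that were higher, named here after their values were seen, included H19, the host of miR-675, at 2.05, 1.93 and 3.18 TPM in siCTR and 6.30, 5.85 and 7.60 TPM in siCEP20 (log2 fold change 1.18, adjusted p = 0.00108). MIR17HG, the host of the miR-17-92 cluster, was at 0.816, 1.16 and 0.8997 TPM against 2.90, 2.24 and 1.86 TPM (0.76, adjusted p = 0.0106). MIR222HG was listed at 0 in 2 siCTR libraries and at 1.83 TPM in the third, against 3.65, 4.45 and 4.88 TPM in siCEP20. MIR17HG and MIR222HG averaged under 1 TPM in siCTR and passed the filter only through their siCEP20 values. Their calls, which are part of the count of 7, are therefore not independent of the filter. SMC4 and MIR31HG were higher and LINC-PINT lower. Other let-7 host genes of the list were not called, MIRLET7BHG (-0.23, limma adjusted p = 0.11) and MIRLET7A1HG (0.17, adjusted p = 0.526). Host RNA that has been cut by DROSHA and host RNA that has not are not told apart by these values, and mature microRNAs were not measured.

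Of the hairpins in host genes that rose, 4 from MIR100HG and MIR503HG, the pair with the smallest adjusted p among these host genes, are shown as examples of what DROSHA and DICER1 cut. MIR100HG also holds the hairpin of miR-10526, which is not shown. They are RefSeq sequences (GRCh38.p14), written 5′ to 3′ as RNA, with the bases of the mature arms in capitals. The let-7a-2, miR-100 and miR-125b-1 hairpins lie on the minus strand of chromosome 11 at chr11:122146522-122146593, chr11:122152229-122152308 and chr11:122099757-122099844, and the miR-503 hairpin on the minus strand at chrX:134546328-134546398.
let-7a-2 hairpin: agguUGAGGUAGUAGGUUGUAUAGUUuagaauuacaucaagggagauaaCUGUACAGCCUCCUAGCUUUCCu
miR-100 hairpin: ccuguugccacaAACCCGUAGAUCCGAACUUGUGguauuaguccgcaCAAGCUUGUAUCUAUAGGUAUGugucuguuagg
miR-125b-1 hairpin: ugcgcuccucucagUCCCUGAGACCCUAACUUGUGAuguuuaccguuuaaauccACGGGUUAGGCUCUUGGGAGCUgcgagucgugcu
miR-503 hairpin: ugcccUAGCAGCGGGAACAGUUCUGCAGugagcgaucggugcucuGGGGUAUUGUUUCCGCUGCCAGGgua

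The strands that an Argonaute would hold from the 5′ arms of these hairpins are given with their seeds, bases 2 to 8, in capitals. The 4 seeds differ from one another, so these microRNAs do not share a seed family.
let-7a-5p: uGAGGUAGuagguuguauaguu
miR-100-5p: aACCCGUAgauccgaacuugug
miR-125b-5p: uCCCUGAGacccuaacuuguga
miR-503-5p: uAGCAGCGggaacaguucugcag

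The 4 Argonautes hold the small RNA. AGO4 (ENSG00000134698, chromosome 1 from 35808016 to 35857890), AGO1 (ENSG00000092847, 35869808 to 35930532) and AGO3 (ENSG00000126070, 35930718 to 36072500) are neighbours on the plus strand of chromosome 1, and AGO2 (ENSG00000123908, 140520156 to 140635633, minus strand) lies on chromosome 8. AGO2 was the most abundant Argonaute, at 11.6, 12.4 and 12.4 TPM in siCTR and 14.8, 17.0 and 12.4 TPM in siCEP20. In AGO2, 2 of the 3 siCEP20 libraries exceeded all siCTR libraries and the third lay within them. The means were 12.2 ± 0.465 and 14.7 ± 2.31 TPM (SD, n = 3 each), with a log2 fold change of 0.25 (SE 0.116, 95% interval -0.02 to 0.52, limma adjusted p = 0.116). Without siCEP20 replicate 3 the value was 0.36 and passed the threshold (adjusted p = 0.0309), without siCEP20 replicate 2 it was 0.15 (adjusted p = 0.341), and after the length and GC correction it was -0.05.

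AGO1 was at 4.04, 4.27 and 4.01 TPM in siCTR and 4.18, 4.13 and 4.59 TPM in siCEP20 (log2 fold change 0.05, 95% interval -0.20 to 0.31, limma adjusted p = 0.723). AGO3 was at 2.11, 2.90 and 2.27 TPM against 2.86, 2.18 and 2.70 TPM (0.06, interval -0.29 to 0.42, adjusted p = 0.764). AGO4 was at 2.44, 3.04 and 2.48 TPM against 3.09, 2.98 and 2.75 TPM (0.11, interval -0.20 to 0.42, adjusted p = 0.54). In all 3 genes of the chromosome 1 cluster the groups overlapped, and their log2 fold changes turned negative with median-of-ratios scaling, quantile normalization and the length and GC correction. Summed over the 4 genes, Argonaute RNA was at 20.2, 22.7 and 21.2 TPM in siCTR and 24.9, 26.3 and 22.4 TPM in siCEP20, and the groups overlapped (two-sided exact permutation test, p = 0.2).

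AGO2 was the main Argonaute of the pool in both groups. AGO2 made up 57.0% ± 1.90 of the summed AGO1 to AGO4 TPM in siCTR and 59.8% ± 4.72 in siCEP20 (SD, n = 3 each, two-sided exact permutation test, p = 0.4). AGO1 made up 19.3% ± 0.645 and 17.6% ± 2.50 (exact permutation p = 0.4), AGO4 12.4% ± 0.897 and 12.0% ± 0.574 (exact permutation p = 0.6), and AGO3 11.3% ± 1.29 and 10.6% ± 2.01 (exact permutation p = 0.7). Single libraries moved these differences, since AGO2 differed by 0.332 percentage points without siCEP20 replicate 2 and by 5.04 without siCEP20 replicate 3, and AGO1 by -0.647 and -3.03. The groups overlapped in all 4 shares, and none of the 4 differences was larger than the SD of the siCEP20 libraries. Those of AGO1 (-1.62 percentage points) and AGO2 (2.78) were larger than the SD of the siCTR libraries.

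TNRC6 proteins link Argonaute to the deadenylases. TNRC6A (ENSG00000090905, chromosome 16 from 24610209 to 24827632, plus strand) was at 14.5, 20.4 and 17.5 TPM in siCTR and 17.0, 20.6 and 16.9 TPM in siCEP20 (log2 fold change 0.06, 95% interval -0.24 to 0.36, limma adjusted p = 0.738). TNRC6B (ENSG00000100354, chromosome 22 from 40044817 to 40335808, plus strand) was at 5.71, 6.37 and 6.14 TPM against 4.85, 6.73 and 5.84 TPM (-0.06, interval -0.36 to 0.23, adjusted p = 0.712). In these 2 genes the groups overlapped. The log2 fold change of TNRC6A was negative with median-of-ratios scaling, quantile normalization and the length and GC correction, and TNRC6B was called lower after that correction (-0.38, adjusted p = 0.032).

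TNRC6C (ENSG00000078687, chromosome 17 from 77958703 to 78108822, plus strand) was the least abundant of the 10 genes in both groups. Its TPM was 0.865, 0.725 and 1.10 in siCTR and 2.00, 1.92 and 1.47 in siCEP20, so that every siCEP20 value lay above every siCTR value. The mean went from 0.897 ± 0.190 to 1.80 ± 0.283 TPM (SD, n = 3 each), 2.01 times as high. On the log2(TPM + 1) scale the change was 0.56 (SE 0.176, 95% interval 0.16 to 0.96, limma adjusted p = 0.0325). The call was lost with median-of-ratios scaling (adjusted p = 0.0547), quantile normalization (0.0831) and the length and GC correction (log2 fold change 0.29, adjusted p = 0.199). It was also lost, with log2 fold changes of 0.49 to 0.55, without siCTR replicate 1 (adjusted p = 0.0756), siCTR replicate 2 (0.0897), siCEP20 replicate 1 (0.0934) or siCEP20 replicate 2 (0.0901), fits that rest on fewer libraries. TNRC6C overlaps TMC6 on the opposite strand, which fell from 18.7 to 13.1 TPM (log2 fold change -0.49, adjusted p = 0.00431), and the part of this overlap in the values of TNRC6C was not tested.

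Within the TNRC6 family, TNRC6C made up 4.10%, 2.63% and 4.45% of the summed TPM in siCTR and 8.36%, 6.58% and 6.09% in siCEP20. Its share was higher in all 3 siCEP20 libraries (two-sided exact permutation test, p = 0.1, the smallest possible value). The TPM of TNRC6C already separated the groups, so its share is not independent of that change. TNRC6A held 71.2% ± 2.75 and 70.5% ± 0.798 (exact permutation p = 0.8), and TNRC6B 25.0% ± 1.98 and 22.5% ± 1.98 (exact permutation p = 0.2; SD, n = 3 each). The family's summed level was 24.4 ± 3.23 TPM in siCTR and 25.8 ± 3.01 TPM in siCEP20 (exact permutation p = 0.7). TNRC6A was the main paralog in every library. The 7 shares compared in the 2 families sum to a fixed total within a family and were not adjusted for one another.

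**Figure D3:**
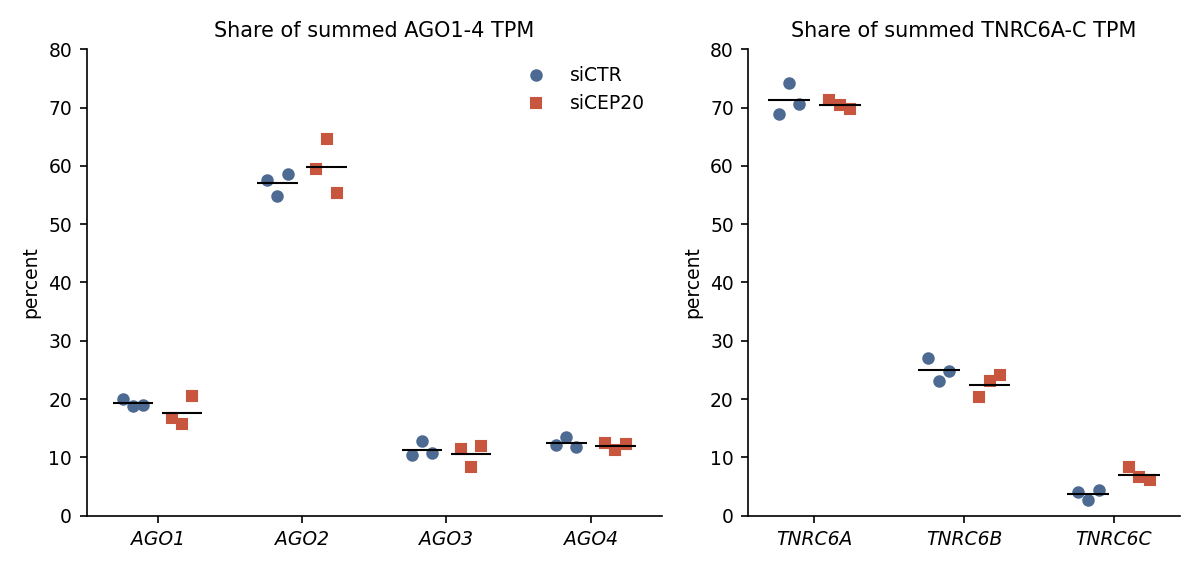
Percent of the summed AGO1 to AGO4 TPM (left) and of the summed TNRC6A to TNRC6C TPM (right) held by each gene in 3 siCTR libraries (circles) and 3 siCEP20 libraries (squares), with lines at the group means. AGO2 and TNRC6A dominate their families in both groups, and only the shares of TNRC6C, 2.63% to 4.45% against 6.09% to 8.36%, do not overlap.

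The order of levels was nearly the same in both groups. In siCTR it ran from XPO5 through DROSHA, TNRC6A, AGO2, DICER1, TNRC6B, AGO1, AGO4 and AGO3 down to TNRC6C, and in siCEP20 DROSHA and XPO5 changed places. XPO5 and DROSHA did not overlap in either group. Neighbours whose ranges overlapped were DROSHA and TNRC6A in siCTR, TNRC6A and AGO2 as well as AGO2 and DICER1 in siCEP20, and AGO4 and AGO3 in both groups. The remaining neighbours were separate in all libraries of a group.

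Most of these genes have long transcripts, and long transcripts moved differently from short ones in these libraries. The canonical transcripts of 8 of the 10 genes, from 7272 bases in AGO4 to 19660 bases in AGO3, fell in the longest decile of all tested genes (7048 to 34626 bases). DROSHA (5416 bases) and XPO5 (5323 bases) fell in the decile below it, and the median over all tested genes was 2818 bases. In the longest decile the median log2 fold change was 0.28 and 43.3% of genes were higher, in the decile below it 0.24 and 40.2%, and in the shortest decile -0.06 and 11.3%. Among genes of its own decile, DICER1 exceeded 27.1%, AGO1 25.2%, TNRC6A 26.1%, TNRC6B 16.4% and XPO5 18.7%, whereas AGO2 exceeded 45.5%, TNRC6C 79.8% and DROSHA 93.7%. The trend with length was removed by a loess correction for length and GC content in each library (Spearman's rho between length and log2 fold change across 14737 genes 0.254 before and 0.00664 after, where genes are not independent). After it, XPO5 and TNRC6B were lower and DROSHA higher past the threshold, the last by 0.56.

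**Figure D4:**
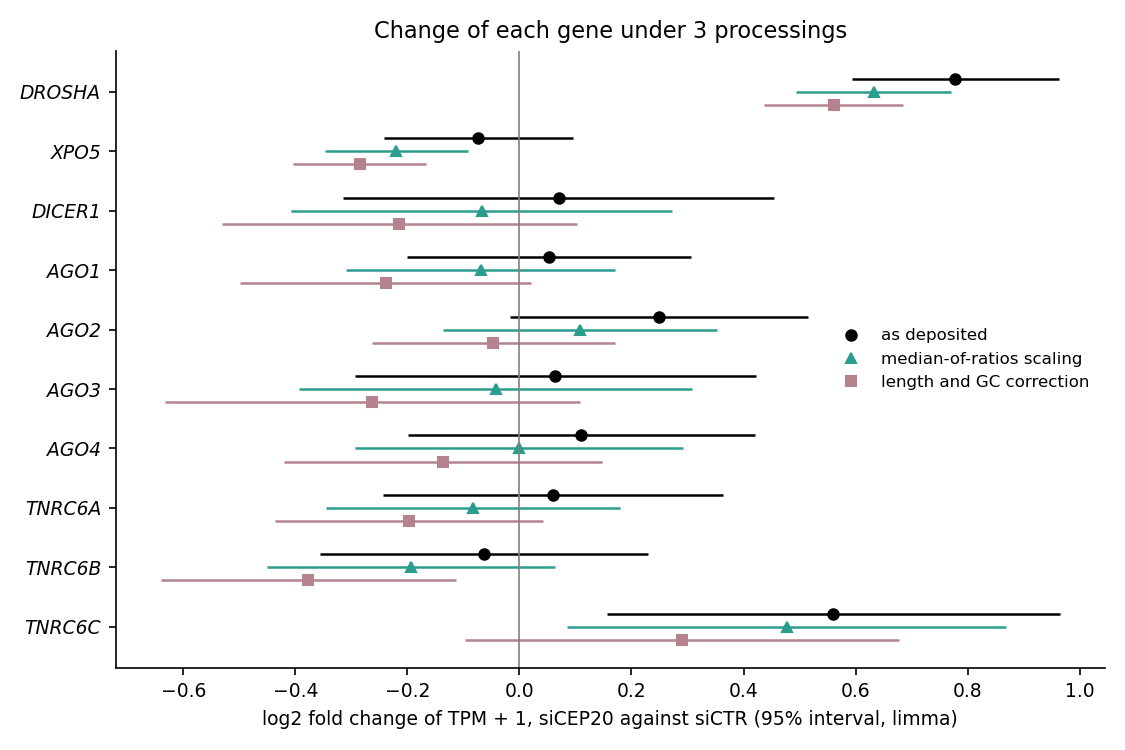
Log2 fold change of TPM + 1 (siCEP20 against siCTR) of each gene with its 95% interval from limma, as deposited (circles), with median-of-ratios scaling (triangles) and with the length and GC correction (squares). DROSHA stays above 0 in all 3 (0.78, 0.63 and 0.56), while AGO1, AGO3, DICER1 and TNRC6A cross from slightly positive to negative values.

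Genes around the core machinery were followed in lists chosen by function, whose counts can be read against 30.2% of all tested genes higher and 13.2% lower as deposited. With median-of-ratios scaling 20.1% of all tested genes were higher and 21.6% lower, and after the length and GC correction 19.9% and 21.3%. The cofactors of hairpin processing moved both ways, with 6 of 29 higher and 7 lower (median log2 fold change 0.08), or 1 higher and 10 lower with median-of-ratios scaling. TARBP2, a double-stranded RNA-binding partner of DICER1, fell from 62.6 ± 1.73 to 43.6 ± 3.93 TPM (log2 fold change -0.51, limma adjusted p = 0.00125). PRKRA, a related partner, was also lower (-0.32, adjusted p = 0.00832), as was METTL3, the writer of N6-methyladenosine (-0.45). ADAR, which edits adenosines in double-stranded RNA, fell from 84.6 ± 6.35 to 60.3 ± 0.972 TPM (-0.48, adjusted p = 0.00101). KHSRP, which binds the loops of some hairpins including let-7, rose from 157 ± 5.56 to 197 ± 3.23 TPM (0.33, adjusted p = 0.00152; SD, n = 3 in each group).

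Of the factors that load or accompany Argonaute, 35 were tested, 12 were higher and 2 lower, and the median log2 fold change was 0.15. With median-of-ratios scaling the counts were 8 and 8. HSP90AA1, a chaperone that helps load duplexes, rose from 309 ± 34.8 to 454 ± 9.92 TPM (log2 fold change 0.56, limma adjusted p = 0.00109), and its cochaperone AHSA1 from 177 ± 9.88 to 237 ± 4.67 TPM (0.42, adjusted p = 0.000851). TSNAX, a subunit of the C3PO nuclease that removes the passenger strand, fell from 40.05 ± 4.77 to 25.3 ± 0.455 TPM (-0.64, adjusted p = 0.001; SD, n = 3 in each group).

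Downstream of TNRC6, 18 of 24 deadenylation genes were higher and 0 lower (limma), and the median log2 fold change was 0.32. With median-of-ratios scaling 8 were higher and 2 lower, and after the length and GC correction 9 and 3. Subunits of the CCR4-NOT complex that were higher included CNOT1, its scaffold (log2 fold change 0.32), CNOT2 (0.32), CNOT3 (0.45) and CNOT9 (0.23), which binds TNRC6 directly. The complex did not move as a whole, since CNOT6 (-0.30), CNOT6L (-0.14), CNOT7 (0.14) and CNOT8 (-0.07) were not called. BTG1, an antiproliferative partner of the deadenylases, rose from 78.1 ± 5.69 to 131 ± 8.06 TPM (0.74, limma adjusted p = 0.000201) and the poly(A)-binding protein gene PABPC4 from 71.6 ± 0.834 to 90.6 ± 4.05 TPM (0.33, adjusted p = 0.0025). PABPC1 had a log2 fold change of 0.66. Of 29 decapping and 5′ decay genes 11 were higher and 2 lower (median 0.13), or 5 and 7 with median-of-ratios scaling. DCP1B, a cofactor of the decapping enzyme, rose from 9.39 ± 1.73 to 18.7 ± 1.54 TPM (0.93, adjusted p = 0.000887) and PNRC1 from 109 ± 7.998 to 169 ± 3.08 TPM (0.64, adjusted p = 0.000219). LSM7, a subunit of the LSM ring that binds deadenylated messages, fell from 85.5 ± 7.19 to 41.4 ± 2.45 TPM (-1.03, adjusted p = 7.7e-05; SD, n = 3 in each group).

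Enzymes that add tails to microRNAs or degrade them were listed together with other factors of microRNA turnover, such as LIN28B and CUL3. Of 18 tested genes of this list, 10 were higher and 2 lower (median log2 fold change 0.25). The counts were 7 and 2 with median-of-ratios scaling and 5 and 3 after the length and GC correction. TENT4A rose from 10.3 ± 0.483 to 16.9 ± 1.32 TPM (0.67, limma adjusted p = 0.000729), TENT2 from 18.3 ± 1.58 to 26.3 ± 0.582 TPM (0.50, adjusted p = 0.00183), and DIS3L2, the nuclease for uridylated let-7 hairpins, from 17.8 ± 2.13 to 25.0 ± 1.65 TPM (0.47, adjusted p = 0.00603; SD, n = 3 in each group). The uridylating enzymes TUT4 (0.43, adjusted p = 0.0146) and TUT7 (0.31, adjusted p = 0.038) were also higher.

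Because a transfected duplex can be seen by sensors of double-stranded RNA, these were counted as well. Of 31 genes 18 were tested, 3 were higher and 6 lower, the median log2 fold change was -0.03, and the same numbers were called with median-of-ratios scaling. OAS3, which makes the activator of RNase L, fell from 17.4 ± 0.706 to 11.4 ± 0.781 TPM (-0.56, limma adjusted p = 0.00125), and ADAR and PRKRA, described above, belong to this list too. ISG15, an interferon-induced gene, was also lower (-1.41, adjusted p = 0.0211). IRF3 (-0.27, limma adjusted p = 0.00707) and IRF7 (-0.31, adjusted p = 0.0439) were lower as well. STAU2 (0.57, adjusted p = 0.00226) and SIDT2 (0.58, adjusted p = 0.0027) were higher. Genes of this list that were not called included RIGI (-0.04), IFIH1 (-0.03), MAVS (-0.01) and EIF2AK2 (0.23). The same held for OAS1 (0.10), IFIT3 (-0.09) and IFIT5 (0.27). STAU1, a binder of double-stranded RNA in messages, rose from 90.4 ± 4.59 to 128 ± 4.94 TPM (0.50, adjusted p = 0.00051; SD, n = 3 in each group).

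The let-7 family is a classical product of this pathway. More of the genes listed as its targets were higher than lower, which as deposited was also the case for all tested genes. Of 28 tested, 15 were higher (53.6%) and 1 lower (3.57%), against 30.2% and 13.2% of all tested genes, with a median log2 fold change of 0.31. With median-of-ratios scaling 10 were higher and 2 lower, and after the length and GC correction 9 and 4. RDX, which encodes radixin, a linker of actin to the membrane, rose from 66.6 ± 6.88 to 168 ± 23.8 TPM (1.32, limma adjusted p = 0.000108). IGF2BP2, an RNA-binding protein, rose from 18.0 ± 1.11 to 36.4 ± 2.74 TPM (0.97, adjusted p = 0.000109) and the chromatin protein HMGA1 from 809 ± 53.1 to 1348 ± 136 TPM (0.73, adjusted p = 0.000335; SD, n = 3 in each group). HMGA1, HSP90AA1 and PABPC1 have processed copies elsewhere in the genome, so part of their reads could have been placed there. Since mature let-7 was not measured, these counts do not tell how much let-7 was present.

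**Figure D5:**
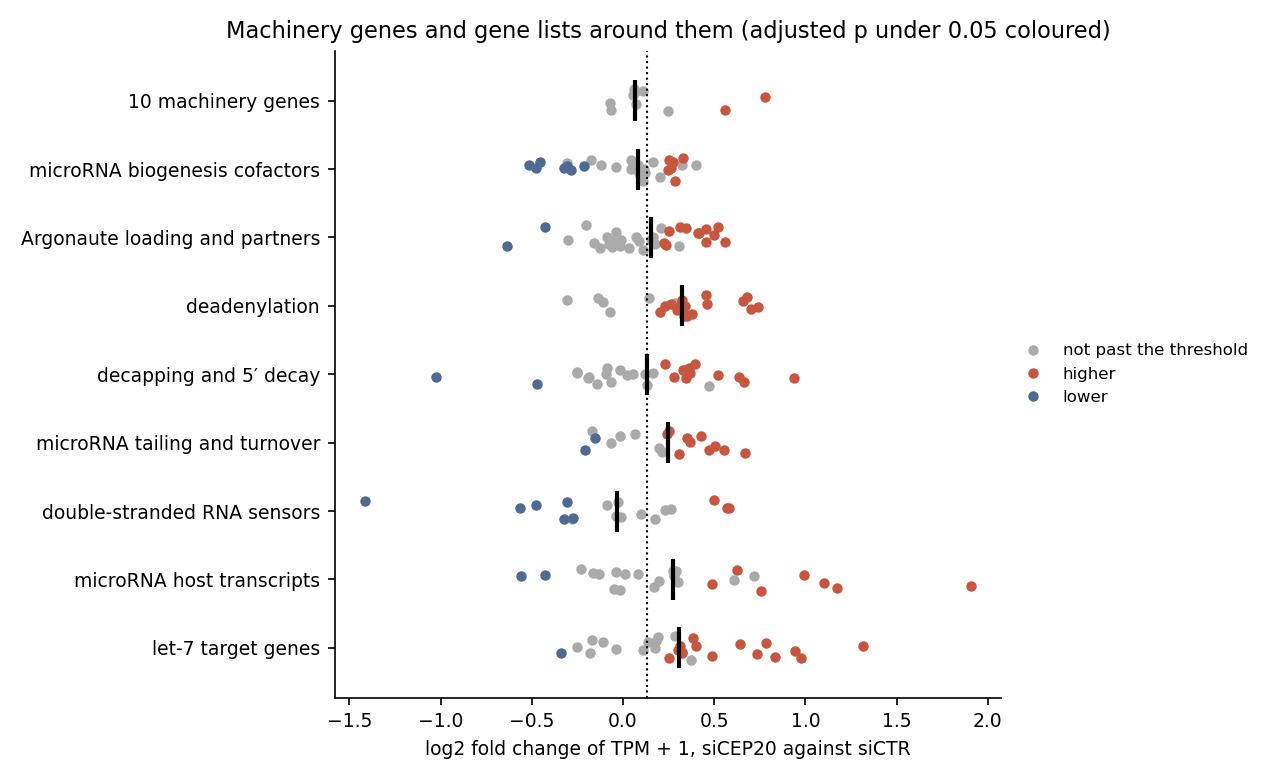
Log2 fold change of TPM + 1 (siCEP20 against siCTR) of the 10 machinery genes and of the tested genes of 8 lists, with a thick line at each median and a dotted line at the median of all tested genes (0.13). As deposited, the deadenylation and let-7 target lists have medians of 0.32 and 0.31 and the 10 machinery genes 0.07.

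As a description, the tested genes whose log2(TPM + 1) followed AGO2 most closely over the 6 libraries were TBX20 (Pearson's r 0.991), ST8SIA4 (0.989) and ADAM10 (0.988). For DICER1 they were TIMM23B-AGAP6 (0.997), NFATC2IP (0.977) and CCDC124 (0.9749). The 6 points share 2 treatment groups and few degrees of freedom, and 291 tested genes had r over 0.9 with AGO2 and 84 with DICER1.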

How the data were processed

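RNA-seq libraries of A549 cells, 3 siCEP20 and 3 siCTR, were compared. Reads were processed by the authors with fastp 0.20.1, HISAT2 2.1.0 and StringTie 2.0 on hg38, per the submitters' processing notes, and the authors deposited 1 table of TPM per Ensembl gene, whose columns sum to the same total in every library. The annotation release and the use of strand in quantification are not given in the sources used here. The authors tested read counts with DESeq2, and since TPM are not counts, limma 3.58.1 (R 4.3.3, lmFit, eBayes with a trend) was applied to log2(TPM + 1) instead, without rescaling, for genes averaging 1 TPM or more, with Benjamini-Hochberg adjustment over 14778 genes. Depth is unknown, so precision rests on 3 libraries per group. GENCODE release 44 gave symbols for 60370 of 60624 genes, positions and canonical transcripts (99.7% of tested genes had a length and GC content), and RefSeq the microRNA sequences. Family shares and ratios were compared by two-sided exact permutation tests (scipy 1.17.1).

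The 10 genes and the 8 lists around them were chosen with earlier results of these data known, so list counts are descriptions and no list was tested as a set. The text names all 10 genes, CEP20, genes overlapping a member, in each list the 3 tested genes with the smallest adjusted p, and for AGO2 and DICER1 the 3 genes most alike. DGCR8, CYTOR, the CNOT subunits, PRKRA, METTL3, TUT4, TUT7, ISG15, H19, MIR17HG, MIR222HG, SMC4, MIR31HG and LINC-PINT were named after their values were seen. So were RIGI, IFIH1, MAVS, EIF2AK2, OAS1, IFIT3, IFIT5, IRF3, IRF7, STAU2, SIDT2, MIRLET7BHG and MIRLET7A1HG. On simulated data with 14778 genes (siCEP20 against siCTR), of which 200 were changed, 100% of genes changed 2-fold and 86% of those changed 1.5-fold were called, with 6 unchanged genes. The simulated noise had the same spread for all genes of a given level, taken from siCTR. Its fold changes were set on the log2(TPM + 1) scale, so these rates need not hold for the real libraries or for low genes. The processing was varied with the pseudocount (0.1), the filter (none, or 5 TPM on average), quantile normalization, median-of-ratios scaling, eBayes fitted with no trend, the replicate number as a blocking term, a loess correction for length and GC content (span 0.5), both together, protein-coding genes only, and each library left out in turn.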

Additional observations from a re-analysis of the deposited data

How the results depend on the processing

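DROSHA and CEP20 kept their direction and their calls in all 16 alternatives, and the ratios of DROSHA to XPO5, DGCR8 and DICER1 kept their direction in all 8 of theirs. The number of machinery genes called higher, 2 as deposited, was 1 with a mean of at least 5 TPM required (where TNRC6C was not tested), median-of-ratios scaling, quantile normalization, the replicate block, the length and GC correction and that correction with the block, and lay between 1 and 3 with single libraries left out. The number called lower, 0 as deposited (limma), was 1 with median-of-ratios scaling, quantile normalization and the length and GC correction with the block, and 2 with that correction alone. The median log2 fold change of the 10 genes, 0.07 as deposited, was -0.0547 with median-of-ratios scaling, -0.0828 with quantile normalization, -0.21 with the length and GC correction with or without the block, and 0.0207 to 0.17 with single libraries left out. Of the 203 tested genes in the 8 lists, 82 were higher and 20 lower as deposited, 49 and 39 with median-of-ratios scaling, and 60 and 34 with quantile normalization. The counts were 47 and 44 with the length and GC correction, and 46 and 37 with that correction and the block. The split over all tested genes, 69.6% of the called genes higher as deposited, was 48.2% with median-of-ratios scaling, 51.8% with quantile normalization and 48.3% after the length and GC correction. The cause of these shifts was not tested.

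Among single genes without a call, the sign turned for AGO1 (-0.069, -0.12 and -0.24 on the log2 scale with median-of-ratios scaling, quantile normalization and the length and GC correction), AGO3 (-0.0423, -0.084 and -0.26), AGO4 (-0.000344, -0.0376 and -0.14), DICER1 (-0.0671, -0.10 and -0.21) and TNRC6A (-0.0828, -0.0817 and -0.20), and for AGO2 with the correction (-0.0467). The correction with the replicate block gave the same values as without it, since the block does not change a balanced difference. With single libraries left out, the log2 fold change lay between 0.15 and 0.36 for AGO2, -0.00288 and 0.16 for AGO3, -0.083 and 0.19 for DICER1, -0.0594 and 0.17 for TNRC6A, and -0.16 and 0.041 for TNRC6B. In percentage points, the difference in share lay between 0.332 and 5.04 for AGO2, -3.03 and -0.647 for AGO1, -1.45 and 0.413 for AGO3, -0.765 and 0.082 for AGO4 and -1.97 and 0.742 for TNRC6A, for which quantile normalization gave 0.191 and the length and GC correction 0.861.

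Replicate numbers did not pair the libraries: deviations of same-numbered siCEP20 and siCTR libraries correlated at 0.157, -0.061 and -0.062, and not every library correlated best with its own number. With the replicate block, 4274 genes were higher and 1857 lower, against 4457 and 1944 without it, and TNRC6C was no longer called (adjusted p = 0.0671). Of the genes named by rule from the lists, KHSRP lost its call in 1 alternative, the length and GC correction with the block (adjusted p = 0.0563).

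TPM holds no read depth, so the precision of low genes such as TNRC6C rests on 3 libraries per group. Without a measurement of total RNA, changes relative to all genes and absolute changes cannot be separated. Neither protein nor mature microRNA was measured.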
